A study of Mus musculus with 15 samples.

Results

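The 8 genes described here encode the nuclear receptors for fatty acids and oxysterols in mouse hippocampus. They are the retinoid X receptors Rxra, Rxrb and Rxrg, the peroxisome proliferator-activated receptors Ppara, Ppard and Pparg, and the liver X receptors Nr1h2 (LXRβ) and Nr1h3 (LXRα). They were chosen by symbol and matched to the gene identifiers of the count files, which list 55401 genes, and all 8 were among the 19536 genes that passed the filter on low counts. Hippocampal RNA of 15 female mice aged 18 to 20 months was sequenced. The Tg2576 mice carry a human amyloid precursor protein gene with the Swedish double mutation, driven by the prion promoter, and WT mice were their littermates without the transgene. The labels write Tg2576 +/+ for the carriers and Tg2576 -/- for WT mice. The vehicle, sesame oil, or docosahexaenoic acid (DHA, an omega-3 fatty acid) at 450 mg/kg in that oil was given daily by gavage for 5 weeks. Each group held 4 separate mice, apart from the Tg2576 DHA group, which held 3. The question was whether the transcripts of receptors that can bind DHA and other lipids differed with genotype, with DHA, or with both.

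Nuclear receptors of this kind are transcription factors that a lipid switches on. RXRs pair with PPARs, LXRs and several other receptors, and DHA is among the fatty acids that can bind RXRs and PPARs. LXRs bind oxysterols made from cholesterol and turn on cholesterol export and lipid synthesis genes, while PPARs turn on fatty acid uptake and oxidation. A transcript level says nothing about ligand or receptor activity, which were not measured here.

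On GRCm38, Rxra (ENSMUSG00000015846.15) lies at chr2:27676440-27762957, Rxrb (ENSMUSG00000039656.17) at chr17:34031812-34038399 and Rxrg (ENSMUSG00000015843.10) at chr1:167598384-167639623, all on the plus strand. Ppara (ENSMUSG00000022383.13) lies at chr15:85734983-85802819, Ppard (ENSMUSG00000002250.16) at chr17:28232700-28301474 and Pparg (ENSMUSG00000000440.12) at chr6:115360951-115490399, also on the plus strand. Nr1h2 (ENSMUSG00000060601.13) at chr7:44549616-44553951 and Nr1h3 (ENSMUSG00000002108.10) at chr2:91184061-91202834 lie on the minus strand. Nr1h3 shared 34 of its 2515 exon bases with another annotated gene, Gm13783, and the other 7 genes shared none.

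These receptors bind DNA through the half-site AGGTCA, which RXR pairs read as a repeat. RefSeq promoter windows of 300 bases (GRCm38.p6) were found for all 8 genes, 14 windows in all. The half-site, on either strand, occurred in 4 of the 14 windows and in 16.3% of all 32851 windows. The direct repeats AGGTCANAGGTCA and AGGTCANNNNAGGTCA, also searched on both strands, occurred in none of the 14 and in 13 and 5 of all windows. The 4 windows belonged to Rxrg, Rxra and Pparg. The Rxrg and Rxra matches, which lie before an internal start site, are shown because the stretches around them meet no annotated exon. Both Pparg matches meet an annotated exon and are named only. Capitals mark the half-site or its reverse complement, on the plus strand of GRCm38.p6, at chr1:167618150-167618209 for Rxrg and at chr2:27709178-27709237 and chr2:27709217-27709276 for Rxra, where the stretches overlap.
Rxrg: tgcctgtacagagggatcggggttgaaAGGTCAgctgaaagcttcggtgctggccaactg
Rxra, first: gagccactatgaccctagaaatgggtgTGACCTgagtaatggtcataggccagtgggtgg
Rxra, second: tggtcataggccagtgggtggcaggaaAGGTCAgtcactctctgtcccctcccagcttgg
A match of letters is a description of the sequence and was not a measurement of binding.

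Total counts per mouse ranged from 17372864, in Tg2576 vehicle replicate 1, to 46596489, in WT vehicle replicate 1. Levels are CPM, read counts scaled to the library size after TMM scaling. App, which also takes up reads of the transgene, was at 1571 to 1786 CPM in the 8 WT mice and at 2075 to 2785 CPM in the 7 Tg2576 mice, so no mouse contradicted its genotype label. All 7 markers of hippocampal neurons had reads in every group, and their summed level was 754 to 1169 CPM. Summed markers of choroid plexus, a tissue that borders the hippocampus, ranged from 66.9 to 5828 CPM, and all 3 Tg2576 DHA mice were at 3125 CPM or more. In bulk tissue, fewer cells of a type and less RNA per cell cannot be told apart.

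Scaled to exon length (CPM per kb), the most abundant member of each family stood well apart from its scarcest one. Nr1h2 averaged 20.3 ± 1.95 and Rxrb 20.2 ± 1.54 CPM per kb (SD, n = 15), and these neighbours did not differ beyond their spread, since Nr1h2 was the higher one in 6 of 15 mice. Rxra followed at 7.18 ± 0.763 and Ppard at 4.09 ± 0.418 CPM per kb, each above the next gene in 15 of 15 mice. Rxrg at 2.10 ± 0.690 and Nr1h3 at 1.64 ± 0.347 CPM per kb crossed in 4 mice, with Rxrg higher in 11 of 15. Pparg at 0.755 ± 0.179 and Ppara at 0.444 ± 0.209 CPM per kb came last, and Pparg was higher in 13 of 15 mice. By plain CPM, Rxrb and Nr1h2 changed places and the rest of the order was kept.

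**Figure D1:**
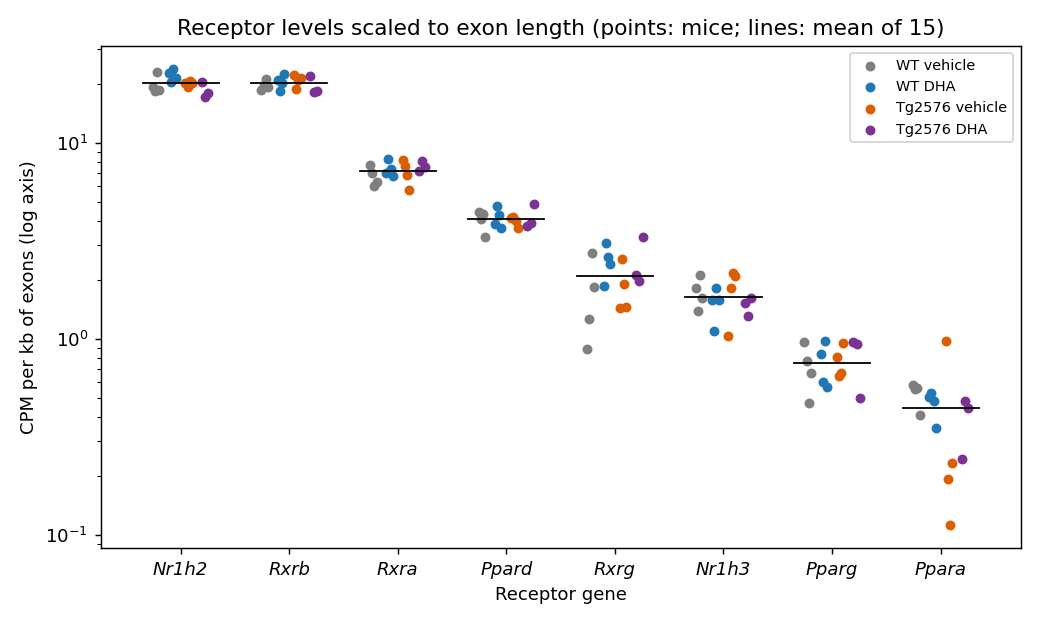
Level of the 8 receptor genes in CPM per kb of exons on a log axis, ordered by their mean; points are mice coloured by group and black lines the mean of 15 mice. Nr1h2 and Rxrb overlap near 20 CPM per kb, and the widest spread is that of Ppara, whose highest mouse was 8.72-fold above its lowest.

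The share of each receptor within its family was computed from these levels per kb. Rxrb supplied 68.5% ± 3.61 of the RXR level (SD, n = 15), Rxra 24.4% ± 2.78 and Rxrg 7.09% ± 2.28. Ppard, the receptor subtype known for its broad expression in brain, supplied 77.4% ± 4.28 of the PPAR level, with 14.4% ± 3.43 for Pparg and 8.24% ± 3.40 for Ppara. Nr1h2 supplied 92.5% ± 1.39 of the LXR level, and its share never fell under 90.5%. The summed RXR level was 27.1 to 31.8, the PPAR level 4.38 to 5.99 and the LXR level 18.4 to 25.7 CPM per kb over the 15 mice.

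None of the 8 receptors passed a p under 0.01 in any of 5 comparisons with the two-sided edgeR quasi-likelihood test fitted over all genes. The comparisons were Tg2576 against WT under vehicle and under DHA, DHA against vehicle in WT and in Tg2576 mice, and the interaction, which is the DHA difference in Tg2576 mice minus that in WT mice. Of all genes tested, 3.09% passed for genotype under vehicle, 1.75% for genotype under DHA, 1.38% for DHA in WT mice, 0.353% for DHA in Tg2576 mice and 0.829% for the interaction. At an unadjusted p under 0.05, edgeR gave only Nr1h2, for genotype under DHA and for the interaction. In the same order of comparisons, 10.7%, 6.86%, 5.92%, 3.16% and 5.12% of all genes tested had a p under 0.05, against 0, 1, 0, 0 and 1 of the 8 receptors. DESeq2 and limma-voom also gave 0 of 8 at a p under 0.01 in each comparison. At p under 0.05, DESeq2 gave 1 receptor for genotype under DHA and 1 for the interaction, and limma-voom gave 1 in every comparison other than DHA in Tg2576 mice, where it gave 0.

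The groups overlapped for all 8 receptors in each of the 4 pairwise comparisons. Groups did not overlap for 5.17% of all genes tested for genotype under vehicle, for 8.55% for genotype under DHA, for 5.03% for DHA in WT mice and for 3.2% for DHA in Tg2576 mice. The median log2 fold change of the receptors was 0.056 for genotype under vehicle, −0.025 for genotype under DHA, 0.051 for DHA in WT mice and 0.066 for DHA in Tg2576 mice. Over all genes these medians were 0.00030, −0.0035, −0.013 and −0.0039. The pairwise comparisons share groups and are not independent of each other.

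**Figure D2:**
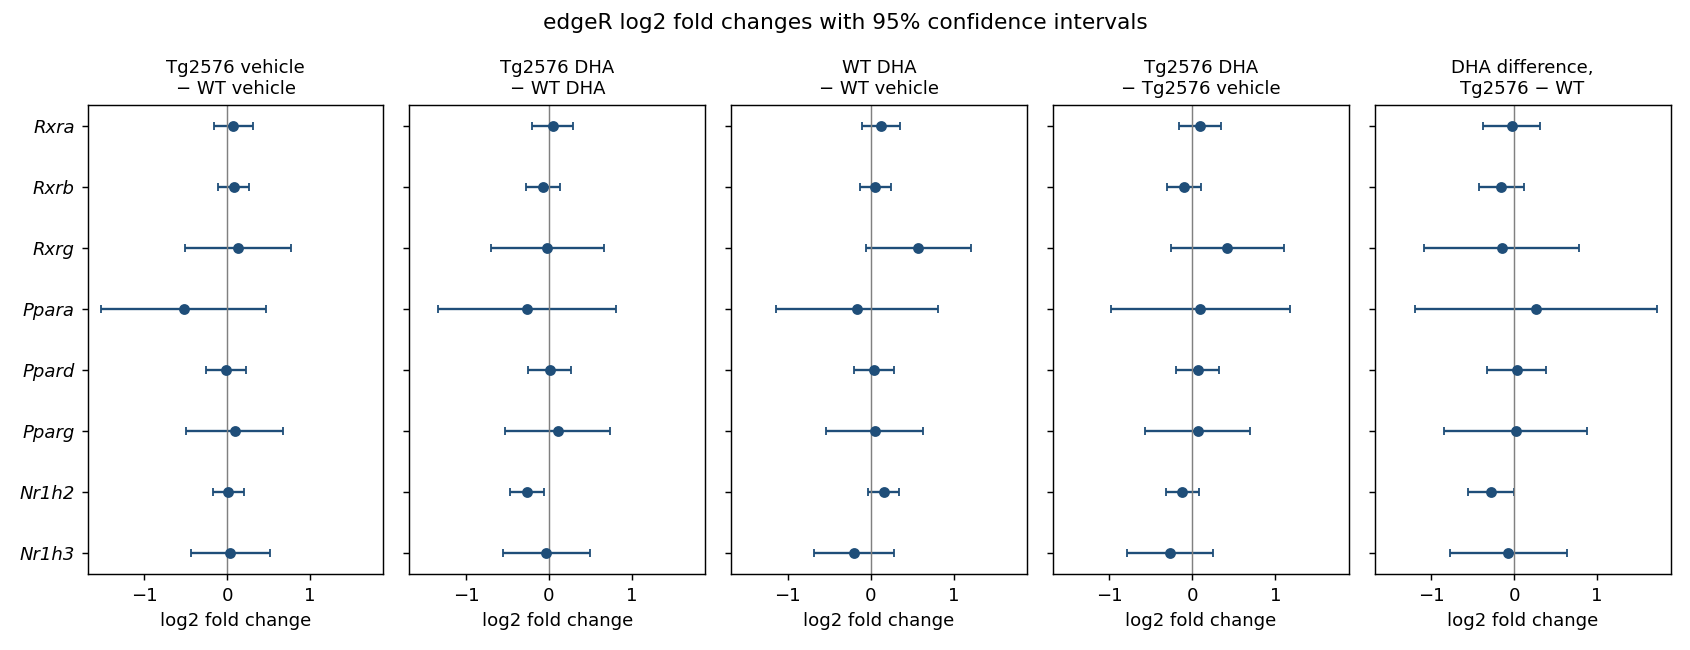
Log2 fold change of each receptor gene (horizontal axis) in the 5 comparisons, with the 95% confidence interval of the edgeR fit. Intervals of Nr1h2, Rxrb, Rxra and Ppard were narrow and those of Ppara the widest, and the only intervals that leave out 0 are those of Nr1h2 for genotype under DHA and for the interaction.

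The receptors differed in how closely these data bound a difference. For Rxrb, the narrowest case, the 95% confidence interval for genotype under vehicle ran from 0.930-fold to 1.20-fold, and for Ppara it ran from 0.349-fold to 1.39-fold. The biological coefficient of variation was 9.84% for Nr1h2, 9.83% for Rxrb, 11.8% for Rxra and 12.3% for Ppard. It was 22.7% for Nr1h3, 26.8% for Pparg, 30.2% for Rxrg and 44.7% for Ppara, where 89.0% of the genes tested varied less. A difference in a scarce receptor of less than its interval was not detectable with these mice.

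Among the RXRs, the shared partners of the other receptors, Rxrg had the largest fold changes with DHA. Rxrg, which in brain is known from striatum and pituitary, was at 2.04, 2.90, 6.28 and 4.24 CPM in the 4 WT vehicle mice and at 4.27, 7.10, 6.05 and 5.51 CPM in the 4 WT DHA mice. It was at 3.29, 5.84, 4.38 and 3.33 CPM in the 4 Tg2576 vehicle mice and at 4.89, 4.52 and 7.62 CPM in the 3 Tg2576 DHA mice. The lowest mice in both genotypes were given vehicle, but WT vehicle replicate 3 and Tg2576 vehicle replicate 2 lay inside the DHA range. The log2 fold change with DHA was 0.57 (95% confidence interval −0.062 to 1.21) in WT mice, and missed the threshold (adjusted p = 0.863 in edgeR). In Tg2576 mice it was 0.42 (−0.26 to 1.10), which also missed it (adjusted p = 0.999 in edgeR). The interaction was −0.15 (−1.08 to 0.78). Summed striatal markers were at 146 to 178 CPM in WT vehicle and 155 to 194 CPM in WT DHA mice. Summed meningeal markers were at 26.04 to 54.3 CPM in WT vehicle and 33.3 to 71.8 CPM in WT DHA mice. Of the 6 meningeal markers, 4 had a positive log2 fold change with DHA in WT mice. It was largest for Dcn (0.66), which averaged 17.9 CPM under vehicle and 28.2 CPM under DHA. Lum (−0.22) and Igf2 (−0.23) were negative. The part of these markers in the Rxrg values was not tested.

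Rxra, the most widely studied RXR, ranged from 37.9 to 48.6 CPM in WT mice on vehicle and 42.5 to 52.2 CPM on DHA, and from 36.4 to 51.7 CPM in Tg2576 mice on vehicle and 45.3 to 50.9 CPM on DHA. Its log2 fold change with DHA in WT mice was 0.12 (−0.11 to 0.36), against 0.093 (−0.16 to 0.34) in Tg2576 mice. Rxrb, the most abundant RXR, ranged from 73.6 to 84.4, 72.8 to 89.5, 75.0 to 88.2 and 72.0 to 87.4 CPM in the same order of groups. Its log2 fold change with DHA in WT mice was 0.056 (−0.13 to 0.24), against −0.099 (−0.30 to 0.10) in Tg2576 mice. For both genes the group means lay within the spread of single mice.

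**Figure D3:**
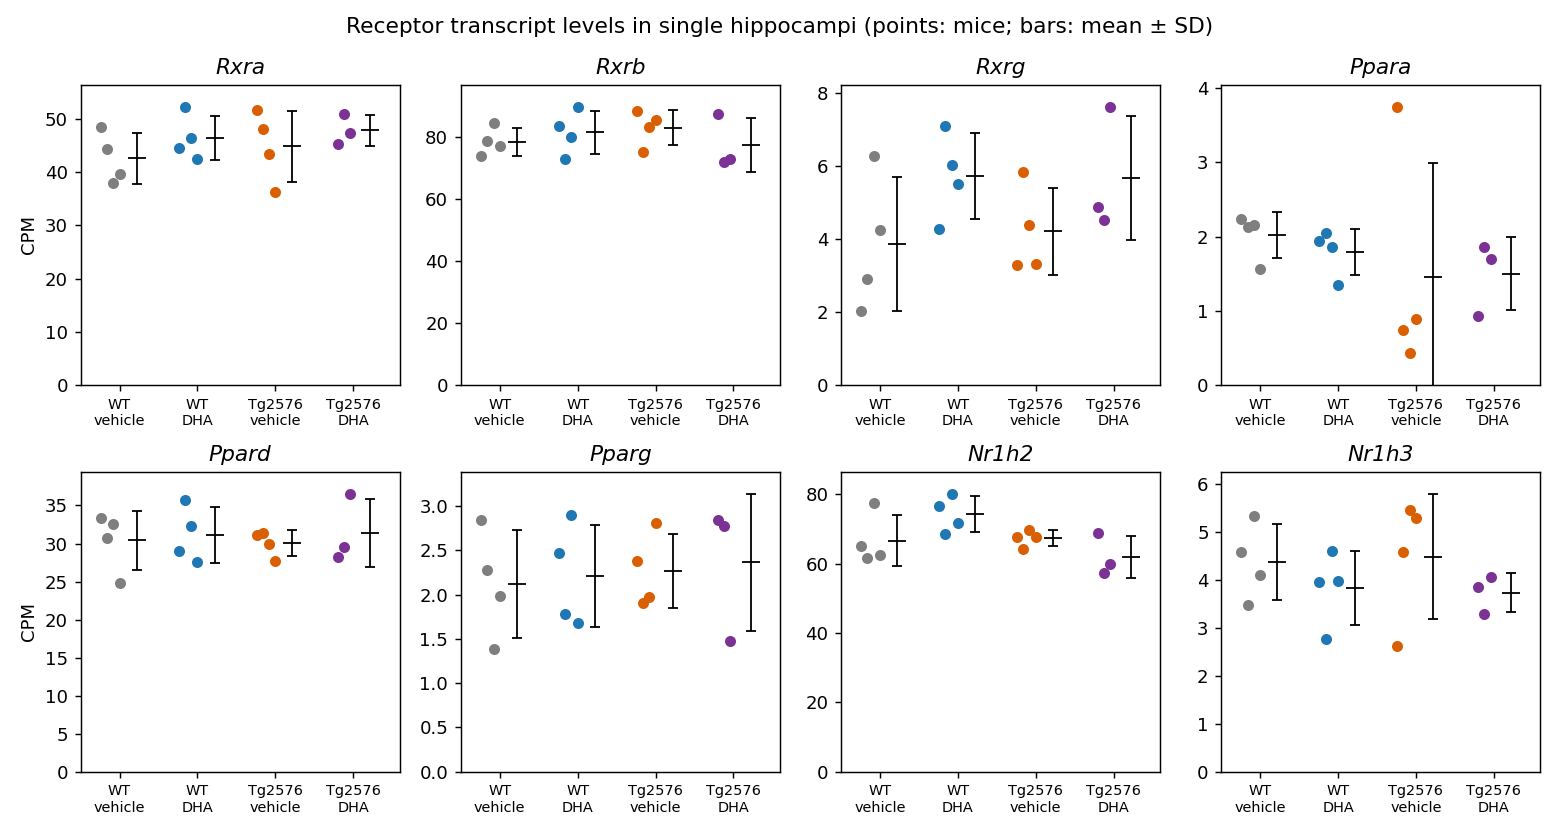
CPM of each receptor gene in every mouse (points, by group) with the group mean and SD (bars), each panel with its own vertical axis from 0. For Ppara, 1 Tg2576 vehicle mouse at 3.74 CPM stands above all others while its 3 group mates are the lowest of the 15 mice.

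Among the PPARs, Ppara varied most within a group. Ppara, the main switch for genes of fatty acid oxidation, was at 2.24, 2.13, 2.16 and 1.56 CPM in the WT vehicle mice and at 1.94, 2.04, 1.86 and 1.34 CPM in the WT DHA mice. It was at 3.74, 0.743, 0.429 and 0.894 CPM in the Tg2576 vehicle mice, from 66, 23, 10 and 22 reads, and at 0.935, 1.86 and 1.70 CPM in the Tg2576 DHA mice. The 8 WT mice lay within a 1.67-fold range, whereas the Tg2576 vehicle group held both the highest mouse of the study, replicate 1, and its 3 lowest. With all mice, the log2 fold change for genotype under vehicle was −0.52 (−1.52 to 0.47), with adjusted p = 0.734 in edgeR.

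Without Tg2576 vehicle replicate 1, the Ppara log2 fold change for genotype under vehicle was −1.54 ± 0.322 (SE), which passed an unadjusted p under 0.01 (adjusted p = 0.0865 in edgeR). The DHA difference in Tg2576 mice was then 1.11 (adjusted p = 0.859 in edgeR) and the interaction 1.28 (adjusted p = 0.628 in edgeR), both past an unadjusted p under 0.01, against 0.097 and 0.26 with all 15 mice. Without Tg2576 vehicle replicate 3, 2 or 4, the Ppara log2 fold change for genotype under vehicle was instead −0.22, −0.30 and −0.34, so each mouse of that group moved it by over 1.5 times. In limma-voom with all 15 mice it was −1.08, past an unadjusted p under 0.05 but not under 0.01. Tg2576 vehicle replicate 1 had the smallest library of the study. It also had the lowest summed microglial (320 CPM), astrocyte (1618 CPM) and oligodendrocyte (5708 CPM) markers of its group, which in the other 3 mice were at 399 to 461, 1826 to 2297 and 7792 to 8274 CPM. The part of depth or cell composition in its Ppara value was not tested.

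Ppard ranged from 24.8 to 33.4 CPM in WT mice on vehicle and 27.5 to 35.7 CPM on DHA, and from 27.7 to 31.4 CPM in Tg2576 mice on vehicle and 28.3 to 36.5 CPM on DHA. Its log2 fold changes were between −0.019 and 0.066 over the 4 pairwise comparisons, and the widest interval was −0.25 to 0.27. Pparg, best known as the receptor of fat cells and of macrophage lipid handling, ranged from 1.38 to 2.84, 1.68 to 2.89, 1.91 to 2.80 and 1.47 to 2.84 CPM in the same groups. Its log2 fold change with DHA in WT mice was 0.047 (−0.54 to 0.64), against 0.066 (−0.57 to 0.70) in Tg2576 mice. These intervals ran from 0.687-fold to 1.55-fold and from 0.675-fold to 1.62-fold.

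Among the LXRs, Nr1h2 came nearest to a genotype difference. Nr1h2, the LXR found in most tissues, was at 65.0, 61.7, 77.4 and 62.4 CPM in the WT vehicle mice and at 76.6, 68.6, 80.1 and 71.9 CPM in the WT DHA mice. It was at 67.8, 64.4, 69.6 and 67.8 CPM in the Tg2576 vehicle mice and at 68.7, 57.2 and 60.002 CPM in the Tg2576 DHA mice. Under DHA, 2 of 3 Tg2576 mice lay below all WT mice, and the remaining one, at 68.74 CPM, lay just above the lowest WT mouse, at 68.65 CPM. The log2 fold change for genotype under DHA was −0.26 (−0.46 to −0.058), past an unadjusted p under 0.05 but not under 0.01 (adjusted p = 0.627 in edgeR). The exact permutation test gave p = 0.114, where 0.0571 was the smallest p it could give with 4 mice against 3.

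With DHA, the Nr1h2 log2 fold change in WT mice was 0.16 (−0.031 to 0.34), against −0.12 (−0.32 to 0.083) in Tg2576 mice. The difference between the genotypes was −0.28 (−0.55 to −0.00075), again past 0.05 but not 0.01 (adjusted p = 0.845 in edgeR). Summed thalamic markers were at 52.7 to 66.4 CPM in WT DHA mice and at 43.4 to 48.8 CPM in Tg2576 DHA mice. Of the 4 thalamic markers, Prkcd averaged 43.9 CPM in WT DHA and 29.4 CPM in Tg2576 DHA mice. The log2 fold change was −0.58 for Prkcd, 0.19 for Tcf7l2, −0.068 for Lef1 and −0.066 for Rgs16. Summed choroid plexus markers were at 66.9 to 5828 CPM in WT DHA and 3125 to 5161 CPM in Tg2576 DHA mice. The part of these markers in the Nr1h2 difference was not tested. Nr1h2 passed p under 0.01 for genotype under DHA without WT vehicle replicate 3 (adjusted p = 0.565 in edgeR) and without Tg2576 DHA replicate 1 (adjusted p = 0.415 in edgeR). For the interaction it passed without WT vehicle replicate 3 (adjusted p = 0.684 in edgeR). Other mice moved Nr1h2 the other way. Without Tg2576 DHA replicate 2, genotype under DHA was at −0.20 (unadjusted p = 0.0825 in edgeR). Without Tg2576 DHA replicate 3 it was at −0.24 (unadjusted p = 0.0502 in edgeR). The interaction was at −0.23 without Tg2576 DHA replicate 2 (unadjusted p = 0.127 in edgeR) and −0.27 without TMM factors (unadjusted p = 0.0710 in edgeR).

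Nr1h3, the LXR of liver and macrophages, ranged from 3.48 to 5.33 CPM in WT mice on vehicle and 2.76 to 4.60 CPM on DHA, and from 2.61 to 5.45 CPM in Tg2576 mice on vehicle and 3.28 to 4.06 CPM on DHA. Its log2 fold change with DHA in WT mice was −0.20 (−0.68 to 0.28), against −0.27 (−0.79 to 0.25) in Tg2576 mice, and the groups overlapped in both. Summed oligodendrocyte markers were at 7293 to 7874 CPM in WT vehicle and 5666 to 8117 CPM in WT DHA mice, and at 5708 to 8274 and 5384 to 7056 CPM in the Tg2576 groups.

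The dependence on single mice was checked by fitting the model 15 times with 1 mouse left out. In Rxrg, the DHA difference in WT mice passed only without WT vehicle replicate 3, the highest WT vehicle mouse, at a log2 fold change of 0.91 (adjusted p = 0.569 in edgeR). Without WT vehicle replicate 1, the lowest WT vehicle mouse, it was 0.35, against 0.57 with all mice. The labels give no reason to leave out any of the mice.

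**Figure D4:**
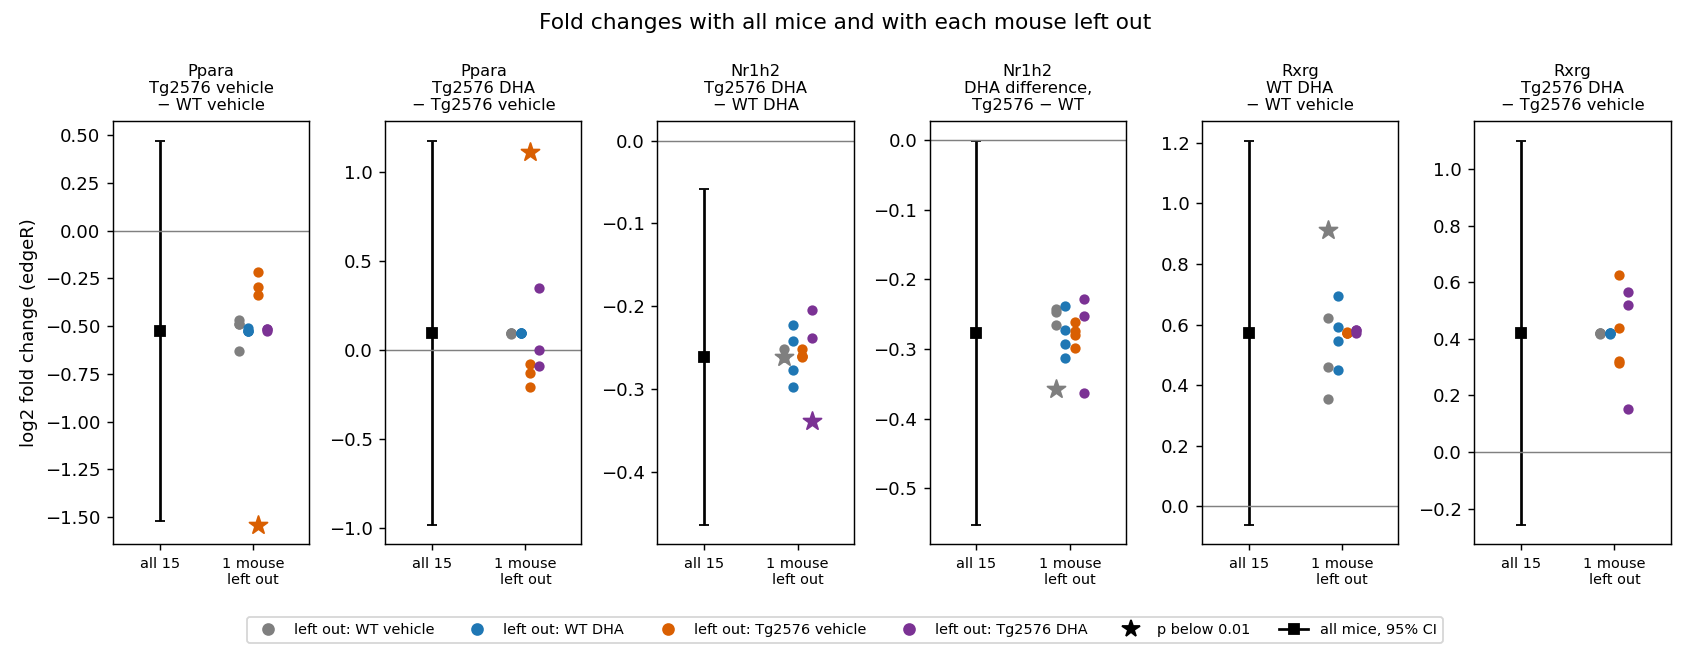
Log2 fold change (vertical axis) of Ppara, Nr1h2 and Rxrg in 6 pairings of a gene and a comparison, with all 15 mice and its 95% confidence interval (squares) and with each mouse left out in turn (coloured by the group of the mouse; stars, p below 0.01). The Ppara estimate under vehicle moved from −0.52 to −1.54 without 1 Tg2576 vehicle mouse, and the Nr1h2 estimates plotted, for genotype under DHA and for the interaction, stayed below 0 throughout.

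Among themselves the receptors varied in different directions between mice of the same group. After the group means were subtracted, 28 pairs were compared over 15 mice, and 0 pairs passed an adjusted p under 0.05 in a permutation test of mice within groups, with 6 at an unadjusted p under 0.05. The strongest was Rxrg with Pparg, at Pearson r = −0.80 (permutation p = 0.00221, adjusted p = 0.0619) and Spearman rho = −0.70 (permutation p = 0.0101, adjusted p = 0.170). Without the 2 mice with the most extreme Rxrg, r was −0.70, and within the 4 groups it was −0.99, −0.33, −0.86 and −0.99.

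Rxrb and Nr1h2, the most abundant members, varied together at r = 0.64 (permutation p = 0.0259, adjusted p = 0.219; rho = 0.67, permutation p = 0.0222, adjusted p = 0.170), and r was 0.48 without the 2 extreme mice. Rxra and Rxrb varied in opposite directions, at r = −0.54 (permutation p = 0.0419, adjusted p = 0.219; rho = −0.61, permutation p = 0.0243, adjusted p = 0.170), and r was −0.81 without the 2 extreme mice. The RXR partners Rxra and Ppard gave r = 0.53 (permutation p = 0.0355, adjusted p = 0.219; rho = 0.57, permutation p = 0.0336, adjusted p = 0.188), and r was 0.53 without the 2 extreme mice. Nr1h3 ran against Rxra at r = −0.66 (permutation p = 0.0470, adjusted p = 0.219; rho = −0.50, permutation p = 0.112, adjusted p = 0.333), and r was −0.51 without the 2 extreme mice. Nr1h3 ran with Nr1h2 at r = 0.50 (permutation p = 0.0264, adjusted p = 0.219; rho = 0.61, permutation p = 0.0172, adjusted p = 0.170), and r was 0.49 without the 2 extreme mice. Within a mouse, both genes of a pair were read from the same library and dissection, while depth and dissection differed between mice. These pairs did not pass the adjustment over the 28.

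**Figure D5:**
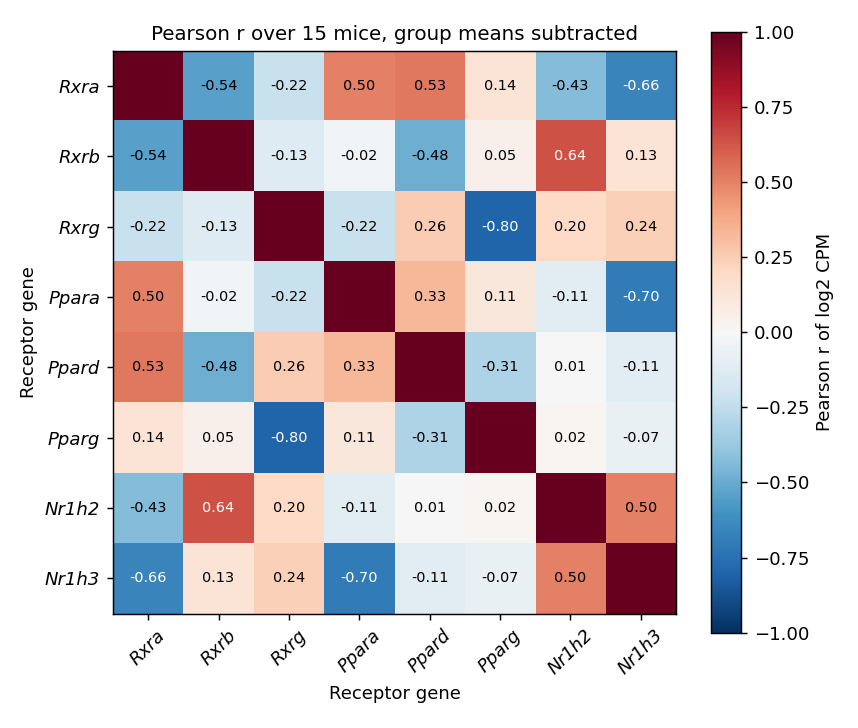
Pearson r of log2 CPM between receptor genes (both axes) over 15 mice with group means subtracted; red is positive and blue negative. The most negative pair is Rxrg with Pparg (−0.80) and the most positive Rxrb with Nr1h2 (0.64).

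The receptors were also set against the summed markers of 10 cell types or neighbouring tissues, a comparison added after the data were seen. Of 80 relations over 15 mice, with group means subtracted, 0 passed an adjusted p under 0.05 and 8 had an unadjusted permutation p under 0.05. Rxrg and the striatal markers set beside it above were not among the 8, at r = 0.024 (permutation p = 0.940, adjusted p = 0.966) and rho = −0.039. Ppara ran against microglial markers at r = −0.76 (permutation p = 0.00151, adjusted p = 0.121; rho = −0.70, permutation p = 0.0189, adjusted p = 0.312), and r was −0.62 without the 2 extreme mice. Nr1h3 ran with oligodendrocyte markers at r = 0.78 (permutation p = 0.00631, adjusted p = 0.163; rho = 0.61, permutation p = 0.0210, adjusted p = 0.312), and r stayed at 0.78 without the 2 extreme mice. Rxrg ran with meningeal markers at r = 0.63 (permutation p = 0.0132, adjusted p = 0.212; rho = 0.63, permutation p = 0.0249, adjusted p = 0.312), and r was 0.57 without the 2 extreme mice. Dcn was the largest part of the meningeal sum, at a mean of 28.2 of 49.5 CPM in WT DHA mice.

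The other 5 relations at an unadjusted p under 0.05 involved Rxrb, Ppara, Nr1h2 and Rxrg. Rxrb ran with thalamic markers at r = 0.70 (permutation p = 0.00335, adjusted p = 0.134; rho = 0.70, permutation p = 0.00548, adjusted p = 0.312), and r was 0.75 without the 2 extreme mice. Rxrb ran against meningeal markers at r = −0.64 (permutation p = 0.0279, adjusted p = 0.319; rho = −0.65, permutation p = 0.0273, adjusted p = 0.312), and r was −0.60 without them. Ppara ran against oligodendrocyte markers at r = −0.74 (permutation p = 0.00813, adjusted p = 0.163; rho = −0.74, permutation p = 0.00844, adjusted p = 0.312), and r was −0.58 without the 2 extreme mice. Nr1h2 ran with thalamic markers at r = 0.69 (permutation p = 0.0197, adjusted p = 0.263; rho = 0.54, permutation p = 0.0545, adjusted p = 0.493), and r was 0.47 without the 2 extreme mice. The thalamic sum was mostly Prkcd, which averaged 48.3 of 60.9 CPM in WT vehicle mice. Rxrg ran with astrocyte markers at r = 0.53 (permutation p = 0.0344, adjusted p = 0.344; rho = 0.64, permutation p = 0.0204, adjusted p = 0.312), and r was 0.43 without the 2 extreme mice.

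For each receptor, the 3 tested genes with the most similar log2 CPM over the 15 mice are given by Pearson r, without a test, since they were the best of all other genes tested. Group means were not subtracted here, so these r also hold differences between groups. Without the 2 mice with the most extreme level of the receptor, r ranged from 0.67 (Pparg with Apobec2) to 0.95 (Rxrb with Znhit2). Rxra was most like Dzank1 (0.89), Oxr1 (0.89) and C1qtnf1 (0.89), and Rxrb most like Znhit2 (0.95), Maf1 (0.94) and Nenf (0.92). Rxrg was most like Gap43 (0.90), which encodes a protein of growing axons, Dcn (0.83), which encodes the matrix proteoglycan decorin and is one of the meningeal markers, and P4ha3 (0.81). Ppara was most like Acvr1b (0.92), Slc24a4 (0.89) and Pogz (0.88). Ppard was most like Gm18637 (0.82), Gabrq (0.81) and Pik3r5 (0.80), of which Gm18637 had 0 to 26 reads and Gabrq 4 to 36 reads per mouse. Pparg was most like Bod1-ps (0.90), Apol8 (0.81) and Apobec2 (0.81), of which Bod1-ps had 0 to 26 and Apobec2 0 to 23 reads per mouse. Nr1h2 was most like Aldh3b2 (0.84), Nosip (0.83) and Kctd2 (0.83), and Nr1h3 most like Prr18 (0.87), Sgk2 (0.86) and Shtn1 (0.85).

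Of the other receptors that pair with RXR, 9 of 11 passed the filter, and the most abundant were the thyroid hormone receptor Thra, at 211 CPM per kb, and the orphan receptor Nr4a1, at 29.2 CPM per kb. Nr4a2, an orphan receptor induced by neuronal activity, was the only one of them past p under 0.01. It was at 41.8 to 56.7 CPM in WT vehicle and 63.6 to 87.8 CPM in WT DHA mice, a log2 fold change of 0.53 ± 0.163 (SE), with adjusted p = 0.600 in edgeR. In Tg2576 mice it was at 30.6 to 61.1 CPM under vehicle and 60.5 to 73.4 CPM under DHA, a log2 fold change of 0.60 ± 0.175 (SE), with adjusted p = 0.999 in edgeR. In the other 3 comparisons 0 of these 9 genes passed in edgeR, with 2 at p under 0.05 for genotype under vehicle, 1 for genotype under DHA and 3 for the interaction. Of all genes tested, 10.7%, 6.86% and 5.12% had a p under 0.05 in these comparisons. There DESeq2 gave 1 gene at p under 0.01 for the interaction and 0 elsewhere, and limma-voom gave 0.

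Of the coactivators and corepressors that receptors recruit to switch genes on or off, 15 of 16 passed the filter. The histone deacetylase Hdac3, at 25.6 CPM per kb, was among the most abundant. The Mediator subunit Med1, which links nuclear receptors to RNA polymerase, was lower in Tg2576 than in WT mice under vehicle, at 43.0 to 49.2 against 51.6 to 63.1 CPM, a log2 fold change of −0.32 ± 0.0999 (SE), with adjusted p = 0.283 in edgeR. Of the 15 genes, 3 had a positive log2 fold change in that comparison, and the median of the 15 was −0.25 against 0.00030 over all genes. At p under 0.05, edgeR gave 4 of the 15, against 10.7% of all genes tested. Summed markers of hippocampal neurons were at 754 to 907 CPM in Tg2576 vehicle and 886 to 1169 CPM in WT vehicle mice. Of the 7 markers, 2 passed an unadjusted p under 0.01, Prox1 (log2 fold change −0.46, adjusted p = 0.198 in edgeR) and Zbtb20 (−0.63, adjusted p = 0.304 in edgeR), both lower in Tg2576 mice. C1ql2 (0.0080) and Spink8 (0.25) were the 2 with a positive log2 fold change. Zbtb20 averaged 301 CPM in WT vehicle and 195 CPM in Tg2576 vehicle mice. Summed markers of neurons in general were at 5392 to 5753 CPM in Tg2576 vehicle and 5316 to 5956 CPM in WT vehicle mice. The part of hippocampal neurons in the coregulator values was not tested. In the other 4 comparisons 0 passed at p under 0.01 in edgeR, DESeq2 or limma-voom. At p under 0.05 edgeR gave 1 of the 15 there, for the interaction, against 5.12% of all genes tested. The median for the interaction was 0.27, against 0.0043 over all genes. For DHA in WT mice it was −0.15, with 2 of 15 positive, against −0.013 over all genes. It was 0.022 for genotype under DHA and 0.098 for DHA in Tg2576 mice. Genotype under vehicle, DHA in WT mice and the interaction all use the WT vehicle group, so their medians are not independent.

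Among carriers of receptor ligands and enzymes that make or break down oxysterols, 10 of 11 passed the filter. Cyp46a1, the neuronal enzyme that turns cholesterol into the LXR ligand 24-hydroxycholesterol, was the most abundant at 53.5 CPM per kb, followed by the fatty acid carrier Fabp3 at 49.9 CPM per kb. Cyp46a1 was at 148 to 170 CPM in WT vehicle and 186 to 198 CPM in WT DHA mice, a log2 fold change of 0.28 ± 0.0895 (SE), with adjusted p = 0.647 in edgeR. In Tg2576 mice it was at 159 to 213 CPM under vehicle and 155 to 184 CPM under DHA, a log2 fold change of −0.097 ± 0.0967 (SE). The interaction was −0.37 ± 0.132 (SE), with adjusted p = 0.845 in edgeR, and did not pass p under 0.01. In each of the other 4 comparisons 0 genes of the list passed in edgeR and 1 had p under 0.05. Of all genes tested, 10.7% and 6.86% had a p under 0.05 for genotype under vehicle and under DHA. It was 3.16% for DHA in Tg2576 mice and 5.12% for the interaction. At p under 0.01 DESeq2 gave 1 gene of the list for the interaction and 0 in the other 3, and limma-voom gave 0.

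The LXR target genes gave 0 of 16 tested genes at p under 0.01 in each of the 5 comparisons, in edgeR, DESeq2 and limma-voom. At p under 0.05, edgeR gave 1 gene for genotype under DHA, 1 for DHA in WT mice, 1 for the interaction and 0 in the other comparisons. Of all genes tested, 6.86%, 5.92% and 5.12% had a p under 0.05 for genotype under DHA, DHA in WT mice and the interaction. The median log2 fold change of the LXR target genes with DHA was −0.033 with the WT genotype and −0.034 with Tg2576. The most abundant were Apoe, the lipid carrier of brain, at 1145 CPM per kb, and the desaturase Scd2 at 275 CPM per kb. The sterol exporters Abcg5 and Abcg8 had at most 4 reads in any mouse and were not tested.

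Of the PPAR target genes, 24 of 33 passed the filter, and the 9 that did not include liver and fat genes such as Fabp1, listed at 0 reads in every mouse, and Adipoq, with at most 4. The fatty acid transporter Slc27a1, at 26.1 CPM per kb, was among the most abundant. Slc27a1 was lower in Tg2576 than in WT mice under DHA, at 117 to 154 against 152 to 174 CPM, a log2 fold change of −0.32 ± 0.0946 (SE), with adjusted p = 0.536 in edgeR. In the other 4 comparisons 0 of 24 passed in edgeR, DESeq2 or limma-voom. Among these, edgeR gave 1 gene at p under 0.05, for DHA in Tg2576 mice, against 3.16% of all genes tested. The median log2 fold change with DHA was −0.019 with the WT genotype and 0.012 with Tg2576. None of the 4 named list genes passed an adjusted p under 0.05.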

How the data were processed

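Hippocampal RNA of 15 mice was analysed. The authors aligned the reads with STAR 2.6.1c and counted them per gene with featureCounts 1.6.0 on GRCm38, without a strand setting, and deposited raw counts per gene. The labels name the SMARTER mRNA-Seq kit and the paper the TruSeq Stranded mRNA kit, and without strand in the counting, reads from a gene and from an antisense partner cannot be told apart. All libraries share a flow cell and lane, so no sequencing batch could be compared. Batches of dissection or library preparation were not examined. Symbols and loci came from GENCODE M21 and the file headers. Counts were analysed with edgeR 4.0.16 in R 4.3.3, with TMM factors, filterByExpr at a minimum count of 10, 1 coefficient per group and robust quasi-likelihood tests, called at p under 0.01, with Benjamini-Hochberg adjustment over all genes tested. Confidence intervals are at 95%. Log2 CPM used a prior count of 2. DESeq2 1.42.0, limma-voom (limma 3.58.1) and other settings were alternatives. The exact permutation test of single receptors used every split of the mice (scipy 1.17.1). Permutation p-values of correlations came from 100000 permutations of mice within groups (numpy 2.4.6). The workflow was tested on simulated data. Counting error and spread between mice are both in the intervals.

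Named were the 8 receptors, App, from each list up to 3 genes by lowest p among those under 0.01 per comparison and the 2 most abundant per kb, and the 3 genes most like each receptor. Some genes within this rule are not reported here. Genes named as untested, as sharing bases or as single markers fall outside this rule and were chosen after their values were seen. The receptors and lists were chosen with earlier results of these data known.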

Additional observations from a re-analysis of the deposited data

Results flagged for a closer look

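Of the 24 combinations of a receptor and a group of 4 mice that were checked, 2 held a mouse far from the other 3, and chance alone gives about 1 in 20. Both concerned Ppara. In the WT vehicle group the lowest mouse was at 1.56 CPM, and its gap to the next mouse was 0.834 of the range of the group. In the Tg2576 vehicle group the highest mouse, replicate 1, was at 3.74 CPM, and its gap was 0.860 of the range. Leaving out that Tg2576 mouse moved the Ppara log2 fold change for genotype under vehicle from −0.52 to −1.54.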

How the results depend on the processing

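Direction and side of the threshold were kept in 786 of 872 alternative estimates of the receptors, 78 turned in sign, and 8 newly passed p under 0.01. The number of receptors called ranged from 0 to 1 in each comparison with a mouse left out, and was 1 for genotype under DHA with the replicate block, through Nr1h2 (log2 fold change −0.27, adjusted p = 0.769 in edgeR). The replicate numbers did not pair the mice. Over 21 pairs of mice with the same number, the correlation of deviations from group means was −0.24 to 0.21 (4 over 0.1), and 5 of 15 mice correlated best with a mouse of their own number. Log2 fold changes that turned with the replicate block were, for genotype under DHA, −0.00983 for Rxra, −0.0515 for Ppard and 0.00748 for Nr1h3, for DHA in Tg2576 mice −0.00177 for Ppard, and for the interaction −0.0388 for Ppard and −0.0594 for Pparg. Without TMM factors, Ppard was at 0.0133 for genotype under vehicle, and Rxrg at 0.0152 and Nr1h3 at 0.00419 for genotype under DHA. With limma-voom, Ppard was at −0.000744 and Nr1h3 at 0.00653 for genotype under DHA. The causes were not tested.

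With 1 mouse left out, log2 fold changes for genotype under vehicle ranged from −0.086 to 0.47 for Rxrg, −0.10 to 0.036 for Ppard, −0.068 to 0.27 for Pparg, −0.014 to 0.096 for Nr1h2 and −0.066 to 0.22 for Nr1h3. For genotype under DHA they ranged from −0.00063 to 0.11 for Rxra, −0.29 to 0.13 for Rxrg, −0.11 to 0.086 for Ppard, −0.037 to 0.35 for Pparg and −0.16 to 0.069 for Nr1h3. For DHA in WT mice they ranged from −0.050 to 0.090 for Ppard and −0.11 to 0.23 for Pparg. For DHA in Tg2576 mice they ranged from −0.0017 to 0.17 for Rxra, −0.21 to 1.11 for Ppara, −0.055 to 0.14 for Ppard and −0.077 to 0.31 for Pparg. For the interaction they ranged from −0.13 to 0.044 for Rxra, −0.49 to 0.068 for Rxrg, −0.043 to 1.28 for Ppara, −0.089 to 0.12 for Ppard, −0.16 to 0.27 for Pparg and −0.25 to 0.034 for Nr1h3.

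The list genes, whose alternatives were chosen after seeing the data, passed p under 0.01 in edgeR or its alternatives in 18 of 22 settings for Med1, 16 of 22 for Slc27a1, 16 of 22 for Cyp46a1, 19 of 22 for Nr4a2 in WT mice and 18 of 22 for Nr4a2 in Tg2576 mice. Med1 was lost without WT vehicle replicate 1 or 2 or Tg2576 vehicle replicate 3 or 4, and the Nr4a2 difference of the WT genotype without WT vehicle replicate 2 or 3 or WT DHA replicate 2. The Nr4a2 difference of the Tg2576 genotype was lost without Tg2576 vehicle replicate 3, without either of Tg2576 DHA replicates 2 and 3, and in the fit of only the 2 groups. Cyp46a1 was lost without WT vehicle replicate 1, 2 or 3 or WT DHA replicate 1, 3 or 4, and Slc27a1 without WT DHA replicate 1 or 4 or Tg2576 DHA replicate 2 or 3, without TMM factors and in the fit of only the 2 groups. Ppara, with 10 to 104 reads per mouse, had the largest counting error of the receptors, 16.5% on average. Its biological coefficient of variation was larger, at 44.7%.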
